A study of Drosophila melanogaster with 12 samples.

Results

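The messages described here encode proteins of the large subunit of the cytoplasmic ribosome. They were measured by RNA immunoprecipitation followed by sequencing (RIP-Seq), in which RNA bound to a protein is recovered with an antibody and sequenced. The members are 44 genes, given as a list of FlyBase identifiers that uses no measured value, among 17612 genes in the count table. They carry the RpL symbols together with RpLP0, RpLP1 and RpLP2, and all 44 were found in the table and passed the filter on low counts in every comparison. The protein immunoprecipitated was Caper, the fly ortholog of the splicing factor RBM39.

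All 12 libraries came from adult heads of the single genotype Hsp70Gal4 x UASCaperFlag, in which FLAG-tagged Caper is overexpressed in any cell that answers to a heat shock promoter. Flies were kept at 37 °C for 2 h and then overnight at 30 °C, so every group, inputs included, had both the heat shock and the overexpression. The age and sex of the flies are not given in the sources used here. The groups are 3 Caper IPs (rabbit antibody to Caper, numbers 1 to 3), 3 FLAG IPs (mouse antibody to the tag, numbers 4 to 6), the 3 inputs of the Caper IPs and the 3 inputs of the FLAG IPs. An input is lysate RNA taken before the immunoprecipitation, and it carries the number of its IP. No mock IP is among these libraries, so each value against input compares an antibody's beads with total lysate RNA. It cannot be told apart here from RNA that would bind to the beads or to ribosomes without Caper.

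Large subunit proteins assemble with ribosomal RNA in the nucleolus and form the part of the ribosome that joins amino acids. The subunit carries a flexible P stalk that calls in elongation factors, an L1 stalk where spent tRNAs leave, a central protuberance built on 5S RNA, and a tunnel through which the new chain exits. The messages are short and abundant, and in animals their translation is tuned as a group by growth signals. In flies, loss of 1 copy of many of these genes gives the Minute phenotype of slow growth and thin bristles. Introns of ribosomal protein genes also host small nucleolar RNAs, which guide changes to ribosomal RNA.

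The libraries held between 9615414 and 12579559 counted read pairs in the inputs and between 20431211 and 34264177 in the IPs. The counting summary counts alignments, so a fragment that maps to several places can count more than once. Of all alignments, genes received 22.7% to 26.2% per input, 69.3% to 72.4% per Caper IP and 53.7% to 60.1% per FLAG IP. Alignments of fragments that mapped to several places made up 71.7% to 75.2%, 21.7% to 24.7% and 34.3% to 40.9% in the same order. These are not shares of fragments. This difference runs along the comparison of IP with input, and its part in the results was not tested. Of 14 markers of head cells (neurons, photoreceptors, glia and head fat body), every median over the inputs was 17.9 CPM (counts scaled to a common library total) or more, and 10 markers of flight muscle, ovary, testis, gut and larval serum had medians from 0.042 to 33.2 CPM. The Caper message itself, which the transgene overexpresses, was higher in both IPs, by 0.94 on the log2 scale in the Caper IP (SE 0.24, adjusted p = 0.047) and by 0.93 in the FLAG IP (SE 0.29, adjusted p = 0.038, both by edgeR's quasi-likelihood test). In whole heads, fewer cells of a type and less RNA per cell cannot be told apart.

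The lysates were rich in these messages, and no member was called between the 2 sets of inputs. Members took 3.56%, 3.80% and 4.31% of all gene counts in Caper inputs 1 to 3 and 4.33%, 3.64% and 3.87% in FLAG inputs 4 to 6. On a per-length level (TPM, counts per kilobase of exon scaled to the same total in each library), they made up 8.39% of the total in the inputs. Of the 44, 34 were among the 100 highest protein-coding genes on that scale, and the lowest ranked 309th. Between FLAG inputs and Caper inputs, 0 members were called by edgeR, where 0.0% of the 9944 genes tested were called in either direction. DESeq2 also called 0 members, where it called 0 of 15314 genes. With either tool 0 members passed an unadjusted p of 0.05. The log2 differences of the members ran from -0.15 to 0.06.

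Within the inputs the members spanned a 12.9-fold range of per-length level. RpL23, a protein of the face that meets the small subunit, had the highest mean at 4419 ± 337 TPM (SD, n = 6 inputs), and RpLP2 followed at 4125 ± 402 TPM. RpL31, at the rim of the exit tunnel, had 3462 ± 285 TPM and RpL29 had 3441 ± 363 TPM. At the other end stood RpL34a at 342 ± 30.0 TPM, RpL5 at 651 ± 39.1 TPM, RpL10Ab at 819 ± 51.2 TPM and RpL22 at 843 ± 88.7 TPM. The order is graded rather than stepped. Of 43 neighbouring pairs in it, 40 had overlapping ranges over the 6 inputs, and the exceptions were RpLP1 above RpL36A, RpL10Ab above RpL5, and RpL5 above RpL34a. RpL5 has the most exon bases of the 44 (3835), which enters its per-length level, and levels rest on read pairs that mapped to 1 place. RpL22 shares 377 of its 1100 exon bases with another gene on the same strand. Read pairs there were not counted, yet its level is set on all 1100 bases. Its place near the low end is therefore uncertain.

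The members share gene features that the list did not use. Their median exon length was 943.5 bases, from 389 in RpL29 to 3835 in RpL5, against 1725.5 for protein-coding genes. They lie on 2L (12 genes), 2R (8), 3L (10), 3R (9) and X (5). Small RNA genes on the same strand lie inside 16 of the 44 (36.4%), against 0.970% of 13606 protein-coding genes. These 33 nested genes are snoRNA genes of 67 to 220 bases, with RpL28 holding 5 of them and RpL3, RpL17 and RpL23A holding 4 each. Exons of 6 members overlap exons of another gene on the same strand, by 377 bases in RpL22 (lncRNA:CR42491), by 518 in RpL23A, and by 61 to 84 in RpL13A, RpL15, RpL28 and RpL3. Read pairs in such overlaps are left out by the counting.

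With the Caper antibody, most members lay slightly above input, and with the FLAG antibody most lay below it. The share of gene counts on members was 4.20%, 5.48% and 6.07% in Caper IPs 1 to 3, or 1.18, 1.44 and 1.41 times the share in the input of the same number. With the FLAG antibody it was 4.31%, 3.13% and 3.07% in IPs 4 to 6, or 0.996, 0.859 and 0.794 times the input. All 3 Caper ratios were thus above 1 and all 3 FLAG ratios below it, with FLAG pair 4 close to 1. When genes under 300 exon bases, mitochondrial genes and rRNA genes were left out of the total, the ratios were 1.08, 1.31 and 1.28 for Caper and 0.929, 0.802 and 0.749 for FLAG.

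**Figure D1:**
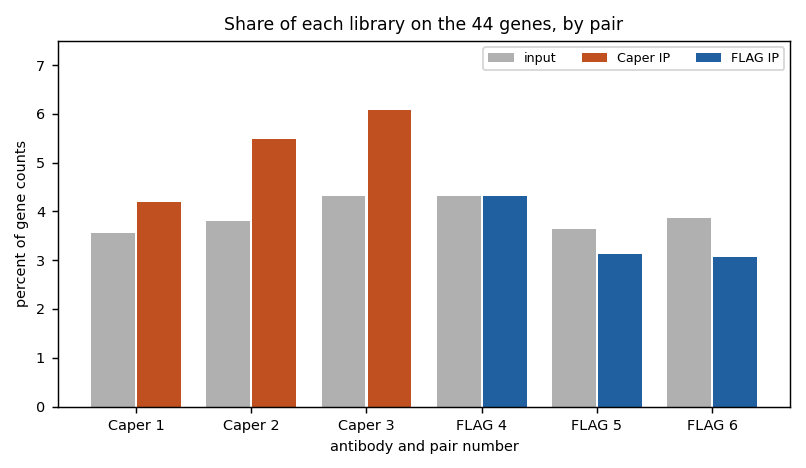
The plot of shares by pair shows, for each of the 6 numbered pairs on the x axis, the percent of all gene counts on the 44 genes in the input (grey bar) and in the IP (coloured bar), with 1 library per bar and no error. The Caper IP bars stand above their inputs in all 3 pairs, and the FLAG IP bars stand at or below theirs, from 4.31% against 4.33% in pair 4 to 3.07% against 3.87% in pair 6.

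In the Caper IP, 9 members were higher than in input and 1 was lower by edgeR's quasi-likelihood test at an adjusted p below 0.05. That is 20.5% of members higher where 6.33% of the 10778 genes tested were called higher, and 2.27% lower where 7.53% were called lower. The median log2 fold change of the 44 was 0.20, against 0.03 over all genes tested, and 31 of 44 were above 0. With the replicate block, which compares each IP with its own input, the calls rose to 15 higher and 4 lower (background 15.8% and 14.8%). The 10 members called without the block were all called with it, and those added were RpL3, RpL7, RpL17, RpL22, RpL34b and RpL35A as higher and RpL27, RpL29 and RpL37A as lower (adjusted p from 0.0058 to 0.049). The count without the block rests on single libraries. It fell to 0 higher without Caper input 1 or Caper input 2 and to 2 without Caper input 3. It was 1 without Caper IP 2 or Caper IP 3 and 16 without Caper IP 1. The 1 lower call was lost when any of the 3 inputs was left out. Calls over all genes moved too. Without Caper inputs 1, 2 and 3, 44 of 11250, 5 of 11553 and 275 of 11564 genes were higher. Without Caper IPs 1, 2 and 3, 1159 of 10391, 121 of 10616 and 265 of 10617 were. With the block, the count of higher members was 23, 8 and 5 without pairs 1, 2 and 3. Over all genes it was then 1494 of 10579, 848 of 11099 and 487 of 10965.

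In the FLAG IP the balance was turned over, with 1 member higher and 18 lower. The shares are 2.27% higher where 19.5% of the 10476 genes tested were called higher, and 40.9% lower where 20.8% were called lower. The median of the members was -0.41 against -0.00 over all genes, and 7 of 44 were above 0. With the replicate block there were 5 higher and 29 lower (background 29.6% and 29.5%), and the 19 members called without the block were all called with it. Leaving out 1 library moved the count of lower members between 10 (without FLAG input 4, FLAG input 6 or FLAG IP 6) and 27 (without FLAG IP 4). Over all genes, 1671 of 10890, 1543 of 10941, 1592 of 10364 and 1910 of 10327 were lower in these 4 fits, in that order. The 1 higher call was lost without FLAG input 5 or 6 or FLAG IP 4 or 5. All-gene higher calls ran from 1371 of 10941 (without FLAG input 6) to 1878 of 10401 (without FLAG IP 5). The members added as lower by the block were RpL3, RpL9, RpL10, RpL11, RpL12, RpL14, RpL15, RpL18, RpL31, RpL34b and RpL36 (adjusted p from 0.00021 to 0.047). With offsets for gene length and no block the FLAG counts were 8 higher and 11 lower, or 18.2% and 25.0% of members. In that fit 19.6% and 21.5% of all genes were called, so the shares of members were near those of all genes. With the offsets and the block together, 27.3% of members were higher and 52.3% lower, where 29.3% and 29.6% of all genes were.

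**Figure D2:**
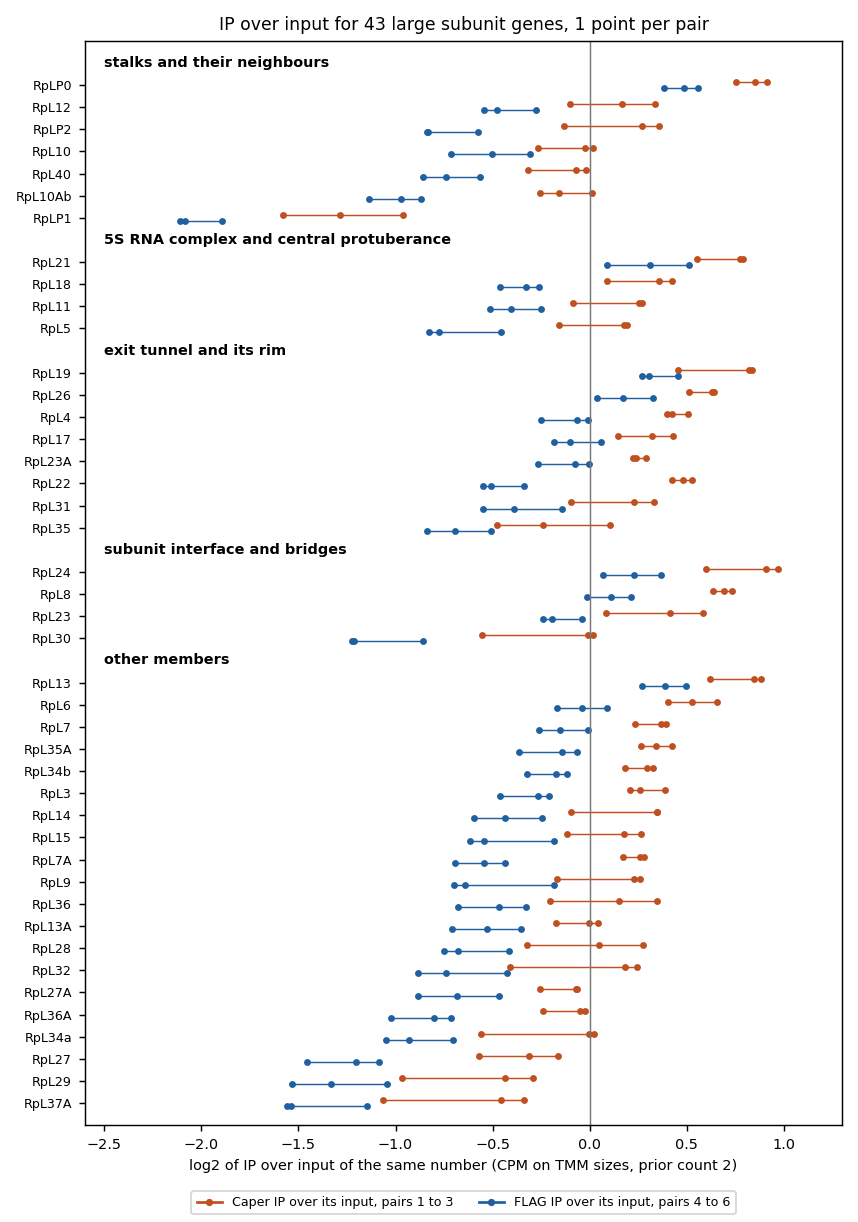
The plot of members by pair gives the log2 ratio of each IP to the input of the same number on the x axis, with 1 point per pair, Caper in orange (3 pairs) and FLAG in blue (3 pairs), and 43 of the 44 genes on the y axis grouped by place in the subunit. Lines join the lowest and highest pair of an antibody. In 42 of the 43 genes drawn, all but RpL19, all blue points lie to the left of all orange points.

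Among the proteins of the 2 stalks and their neighbours, the P stalk members parted from each other: RpLP0 rose, RpLP1 fell, and RpLP2 fell with FLAG. RpLP0 (FBgn0000100, dmel_r6.36 3L:22075867-22077487) anchors the P stalk to ribosomal RNA. Its level was 1135, 1321 and 1411 CPM in Caper inputs 1 to 3 and 2138, 2223 and 2547 CPM in the Caper IPs. In the FLAG libraries it was 1398, 1277 and 1174 CPM in inputs 4 to 6 and 1956, 1881 and 1529 CPM in the IPs. Every IP lay above every input of its antibody. RpLP0 rose by a log2 fold change of 0.85 (SE 0.13, edgeR adjusted p = 0.013) in the Caper IP and 0.49 (SE 0.14, adjusted p = 0.024) in the FLAG IP, and was the only member called higher with both antibodies. Its call was lost in 2 of the 6 fits that left out 1 Caper library (adjusted p up to 0.094) and in 4 of 6 for FLAG (up to 0.107). With the replicate block the members higher with both antibodies were RpL13, RpL19, RpL21, RpL24 and RpLP0.

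RpLP1 (FBgn0002593, 2L:419952-420864) is one of the acidic proteins that hang from RpLP0 and touch elongation factors. It had 1026, 1090 and 1282 CPM in the Caper inputs and 343, 559 and 525 CPM in the Caper IPs. In the FLAG inputs it had 1241, 1008 and 1016 CPM, and in the FLAG IPs 335, 238 and 235 CPM. All 6 IPs were far below all 6 inputs. The log2 fold change was -1.23 (SE 0.21, edgeR adjusted p = 0.016) in the Caper IP and -2.0 (SE 0.18, adjusted p = 0.00031) in the FLAG IP, the lowest value of the 44 in both and the only member called lower in both. The Caper call was lost in 3 of 6 fits that left out 1 library (adjusted p up to 0.091), and the FLAG call was kept in all 6. With the replicate block RpL27, RpL29 and RpL37A were also lower with both.

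RpLP2 (FBgn0003274, 2R:16586129-16586732) is the partner with which RpLP1 pairs on the stalk. It had 1205, 1355 and 1648 CPM in the Caper inputs against 1097, 1736 and 1983 CPM in the Caper IPs, and 1541, 1208 and 1220 CPM in the FLAG inputs against 1033, 677 and 682 CPM in the FLAG IPs. The Caper groups overlapped, whereas all FLAG IPs lay below all FLAG inputs. Its log2 fold change was 0.21 (SE 0.24, edgeR adjusted p = 0.62) for Caper and -0.72 (SE 0.20, adjusted p = 0.024) for FLAG. The FLAG call was kept in only 2 of the 6 fits that left out 1 library (edgeR adjusted p up to 0.082). With offsets for gene length and no block it was not called.

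Ratios of 2 members within a library are not touched by how libraries are scaled. RpLP0 had 1.10 to 1.27 counts for each RpLP1 count in the 6 inputs and 3.98 to 7.91 in the 6 IPs. The ratio rose in all 6 pairs, by a mean log2 change of 2.31 ± 0.34 (SD, n = 6 pairs). The 2 partners parted as well. RpLP1 had 0.778 to 0.851 counts per RpLP2 count in the inputs and 0.265 to 0.351 in the IPs, a mean log2 change of -1.36 ± 0.12 that was below 0 in 6 of 6 pairs. RpLP0 over RpLP2 rose in 6 of 6 pairs, by 0.95 ± 0.38. Each of the 3 gave p = 0.03125 in a two-sided exact sign-flip permutation test over 6 pairs, the smallest that 6 pairs allow, and 0.0391 after Benjamini-Hochberg adjustment over the 5 ratios tested. These ratio tests were set up after the values had been seen. RpLP0 was already above its input and RpLP1 below it in all 6 pairs, so their ratio had to rise in every pair. Any 2 of the 3 ratios also fix the other, so the 3 are not separate tests. Their p-values are given as descriptions. The 3 stalk genes have 1328, 768 and 604 exon bases, and RpLP2 is the only member with 1 exon block.

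**Figure D3:**
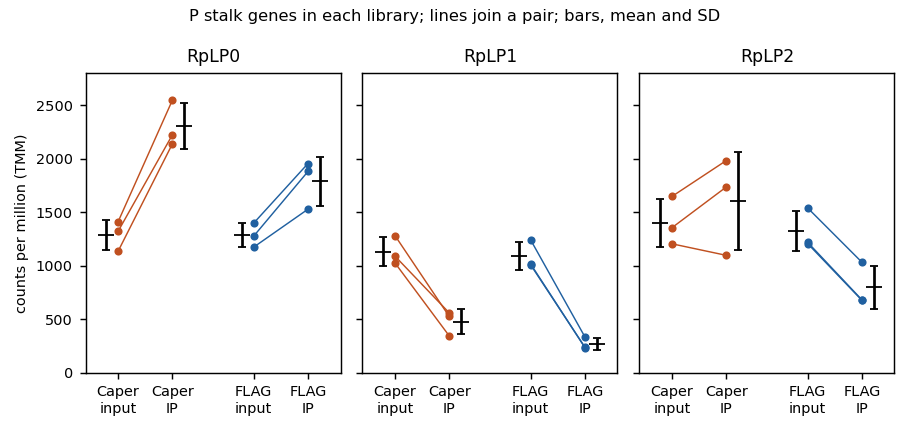
The plot of P stalk genes shows CPM on TMM library sizes (y axis) in each library of RpLP0, RpLP1 and RpLP2, with lines joining an IP to its input and black bars for the mean and SD of 3 libraries. RpLP0 climbs in all 6 pairs, RpLP1 falls in all 6, and RpLP2 falls in the 3 FLAG pairs and in Caper pair 1.

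The other members of this group were level or lower. RpL12, at the base of the P stalk, had 0.16 (Caper) and -0.41 (FLAG) on the log2 scale, and edgeR called the FLAG value only with the replicate block (adjusted p = 0.073 without it and 0.00053 with it). RpL10, which is added late in assembly near the site where peptide bonds form, had -0.07 and -0.48, the second called only with the block (edgeR adjusted p = 0.053 without it and 0.00021 with it). RpL10Ab forms the L1 stalk. It was lower in the FLAG IP (-0.97, SE 0.15, edgeR adjusted p = 0.0026) and at -0.11 with Caper. RpL40, which is made as a fusion with ubiquitin, was also lower in the FLAG IP (-0.70, SE 0.16, adjusted p = 0.012), with -0.11 in the Caper IP. Of the 7 genes, 1 was higher and 1 lower with Caper, and 1 higher and 4 lower with FLAG. Over all genes tested, 6.33% were called higher and 7.53% lower with Caper, and 19.5% and 20.8% with FLAG.

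The 5S RNA complex and central protuberance were held by RpL5, RpL11, RpL18 and RpL21. RpL21 (FBgn0032987, 2L:22247111-22247875) was higher in the Caper IP. It had 1079, 1111 and 1309 CPM in the Caper inputs and 1581, 1900 and 2259 CPM in the IPs. All 3 IPs lay above all 3 inputs, with a log2 fold change of 0.73 (SE 0.16, edgeR adjusted p = 0.035). With FLAG it went from 1236, 1054 and 1209 CPM to 1761, 1308 and 1286 CPM, also without overlap, at 0.33 (SE 0.16, adjusted p = 0.128, or 0.0095 with the replicate block). RpL5, which binds 5S RNA together with RpL11, had 0.10 with Caper and was lower with FLAG (-0.66, SE 0.14, adjusted p = 0.0095). RpL11 and RpL18 had 0.18 and 0.32 with Caper and -0.36 and -0.33 with FLAG, where both were called only with the block (adjusted p = 0.0010 and 0.0016).

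Proteins of the exit tunnel and its rim touch the new chain as it leaves. Of 8 genes, 3 were higher with Caper (RpL4, RpL19 and RpL26) and 0 lower, while with FLAG 0 were higher and 2 lower (RpL22 and RpL35). The shares of all genes tested were 6.33% higher and 7.53% lower with Caper, and 19.5% and 20.8% with FLAG. At an unadjusted p of 0.05, edgeR gave 1 higher in the FLAG IP. RpL19 (FBgn0285950, 2R:24967877-24969547) had 1279, 1346 and 1498 CPM in the Caper inputs and 1752, 2375 and 2670 CPM in the Caper IPs, and 1528, 1383 and 1325 CPM in the FLAG inputs and 2095, 1711 and 1596 CPM in the FLAG IPs. Neither antibody's groups overlapped. Its log2 fold changes were 0.74 (SE 0.18, adjusted p = 0.042) and 0.36 (SE 0.14, adjusted p = 0.072, or 0.0025 with the replicate block). RpL4, which lines the tunnel with a long loop, had 0.45 (SE 0.11, adjusted p = 0.044) and -0.09, and RpL26 had 0.61 (SE 0.13, adjusted p = 0.029) and 0.20.

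RpL22 and RpL23A both carry, in flies, long extra stretches at their amino ends, and RpL23A lies where the signal recognition particle docks. RpL22 (FBgn0015288, X:762560-765130) was the member in which the antibodies differed most (RpL5 with gene length offsets), and RpL23A is FBgn0026372 (3L:1666288-1668654). RpL22 had 417, 561 and 592 CPM in the Caper inputs and 581, 751 and 852 CPM in the Caper IPs. In the FLAG libraries it had 570, 453 and 452 CPM in the inputs and 401, 358 and 308 CPM in the IPs. All FLAG IPs lay below all FLAG inputs, while Caper IPs and inputs overlapped between input 3 and IP 1, although each Caper IP was above its own input. The log2 fold changes were 0.49 (SE 0.20, edgeR adjusted p = 0.147, or 0.0058 with the replicate block) and -0.45 (SE 0.14, adjusted p = 0.035). RpL23A had 1198, 1367 and 1568 CPM in the Caper inputs and 1398, 1615 and 1916 CPM in the IPs, and 1546, 1322 and 1260 CPM in the FLAG inputs and 1540, 1252 and 1048 CPM in the IPs. Both sets overlapped, and its log2 fold changes of 0.27 and -0.09 were not called. The ratio of RpL22 to RpL23A rose in the 3 Caper pairs (mean log2 change 0.22) and fell in the 3 FLAG pairs (-0.35), so its mean over 6 pairs was -0.06 ± 0.33 (p = 0.562 in the same exact permutation test, adjusted 0.562).

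Of the 4 genes at the face that meets the small subunit, 2 were higher with Caper, where 6.33% of all genes tested were. RpL24 (FBgn0032518, 2L:13393687-13395131), which makes a bridge between the subunits, had 1002, 1038 and 1222 CPM in the Caper inputs and 1515, 2029 and 2292 CPM in the Caper IPs. The groups lay apart, and the log2 fold change of 0.86 (SE 0.18, edgeR adjusted p = 0.030) was the largest of the 44 in that fit, with RpLP0 close behind (0.85). RpLP0 was the largest with the replicate block (0.85 against 0.84), and RpL21 with gene length offsets (0.91). In the FLAG libraries RpL24 had 1197, 1012 and 1051 CPM in the inputs and 1544, 1183 and 1102 CPM in the IPs, which overlapped, at 0.25 (SE 0.15, adjusted p = 0.241, or 0.032 with the replicate block). RpL8, next to the site of peptide bond formation, had 0.70 (SE 0.14, adjusted p = 0.024) with Caper and 0.12 with FLAG. RpL30 (FBgn0086710, 2L:19008031-19009306) was lower with FLAG. Its 554, 438 and 446 CPM in the FLAG inputs became 305, 189 and 191 CPM in the FLAG IPs, a log2 fold change of -1.05 (SE 0.21, adjusted p = 0.0065), and its 415, 487 and 552 CPM in the Caper inputs stood beside 282, 484 and 558 CPM in the Caper IPs (-0.12, adjusted p = 0.813). RpL23 (FBgn0010078, 2R:22854383-22855694), the gene with the highest per-length level, had 1187, 1204 and 1473 CPM in the Caper inputs and 1256, 1806 and 1964 CPM in the IPs, and 1473, 1240 and 1264 CPM in the FLAG inputs and 1435, 1082 and 1069 CPM in the IPs. Both of its comparisons overlapped and neither was called (0.40 and -0.14).

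The remaining 21 members were not assigned to any of these places here. With Caper, 2 of them were higher (RpL6 and RpL13) and 0 lower by edgeR, with 0 of them lower also at an unadjusted p of 0.05, and with the replicate block 6 were higher and 3 lower. With FLAG, 0 were higher (1 at an unadjusted p of 0.05) and 10 lower, or 1 higher and 16 lower with the block. Beside these, 6.33% of all genes were called higher and 7.53% lower with Caper (15.8% and 14.8% with the block). For FLAG the shares were 19.5% and 20.8% (29.6% and 29.5% with the block). RpL13 (FBgn0011272, 2L:9967313-9968645) had 882, 1003 and 1093 CPM in the Caper inputs and 1353, 1801 and 2017 CPM in the IPs. In the FLAG libraries it had 1094, 929 and 915 CPM in the inputs and 1543, 1214 and 1101 CPM in the IPs. Its IPs lay above its inputs with both antibodies, at log2 fold changes of 0.81 (SE 0.18, adjusted p = 0.033) and 0.41 (SE 0.15, adjusted p = 0.071, or 0.00093 with the block). RpL6 had 0.54 (SE 0.13, adjusted p = 0.040) with Caper and -0.02 with FLAG.

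RpL37A (FBgn0261608, 2L:5070957-5072055), a small zinc-binding protein, RpL29 (FBgn0016726, 2R:21293768-21294404) and RpL27 (FBgn0039359, 3R:25683623-25685051) had the lowest values of the 21 with both antibodies. RpL37A went from 442, 370 and 391 CPM in the FLAG inputs to 200, 127 and 133 CPM in the FLAG IPs, a log2 fold change of -1.38 (SE 0.19, edgeR adjusted p = 0.0015). Its Caper values were 399, 435 and 500 CPM in the inputs and 191, 317 and 395 CPM in the IPs, all IPs below all inputs, at -0.55 (SE 0.26, adjusted p = 0.222, or 0.024 with the replicate block). RpL29 is the member with the fewest exon bases. It had 838, 627 and 746 CPM in the FLAG inputs and 407, 249 and 258 CPM in the FLAG IPs (-1.26, SE 0.21, adjusted p = 0.0035), and 611, 719 and 849 CPM in the Caper inputs and 313, 587 and 626 CPM in the Caper IPs (-0.50, adjusted p = 0.289, or 0.026 with the block). Its Caper groups overlapped by 1 library, IP 3 above input 1. RpL27 had 960, 747 and 753 CPM in the FLAG inputs and 453, 325 and 274 CPM in the FLAG IPs (-1.21, SE 0.20, adjusted p = 0.0033). In the Caper libraries RpL27 had 728, 861 and 988 CPM in the inputs and 491, 692 and 882 CPM in the IPs, which overlapped (-0.30, adjusted p = 0.447, or 0.049 with the block).

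RpL34a (FBgn0039406, 3R:26058420-26059267) and RpL34b (FBgn0037686, 3R:9400237-9401226) are 2 genes for the same ribosomal protein, and RpL34b gave most of the counts. RpL34a had 99.0, 114 and 135 CPM in the Caper inputs and 67.1, 114 and 137 CPM in the IPs, and 129, 103 and 115 CPM in the FLAG inputs and 79.3, 54.0 and 55.7 CPM in the IPs. RpL34b had 637, 734 and 846 CPM in the Caper inputs and 724, 920 and 1037 CPM in the IPs, and 815, 663 and 670 CPM in the FLAG inputs and 752, 587 and 536 CPM in the IPs. The FLAG IPs of RpL34a lay below all FLAG inputs, and the other 3 comparisons overlapped. RpL34a was lower with FLAG (-0.86, SE 0.17, edgeR adjusted p = 0.0061) and at -0.11 with Caper, while RpL34b had -0.18 and 0.29, called only with the block (edgeR adjusted p = 0.047 and 0.038). RpL34a had 0.155 to 0.172 counts per RpL34b count in the inputs and 0.092 to 0.133 in the IPs. The ratio fell in 6 of 6 pairs, by a mean log2 change of 0.57 ± 0.22 (p = 0.03125 in the exact sign-flip permutation test, adjusted 0.0391). Reads that match both copies would have been left out as multimapping, and how many did is unknown.

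RpL32 (FBgn0002626, 3R:30045229-30046161), known in flies as rp49 and widely used as a reference gene, was not level across these libraries. It had 721, 814 and 899 CPM in the Caper inputs and 543, 923 and 1064 CPM in the Caper IPs (log2 fold change 0.07, edgeR adjusted p = 0.880). In the FLAG libraries it had 883, 719 and 778 CPM in the inputs and 657, 430 and 421 CPM in the IPs, with every IP below every input (-0.64, SE 0.19, adjusted p = 0.031). The FLAG call was lost in 4 of the 6 fits that left out 1 library. It was also lost with offsets for gene length and no block.

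Although their levels moved differently, the members kept nearly the same order with both antibodies. Across the 44 genes the Caper and FLAG log2 fold changes correlated at 0.94 by rank (Spearman) and 0.96 by value (Pearson), against 0.76 and 0.81 over the 10354 genes tested with both. The points share their libraries, so these are descriptions. The 2 sets of values come from separate IPs and separate inputs. Between the highest and the lowest member, the change differed 4.26-fold with Caper and 5.63-fold with FLAG.

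**Figure D4:**
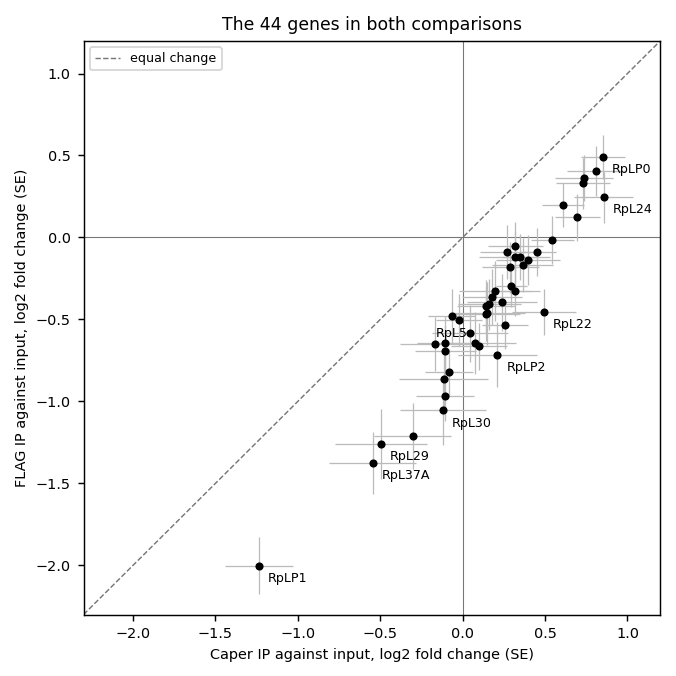
The plot of both comparisons sets the log2 fold change of the FLAG IP (y axis) against that of the Caper IP (x axis) for each of the 44 genes, with bars for the standard errors and a dashed line where both would be equal. The genes lie along a band below the dashed line, from RpLP1 at -1.23 and -2.0 to RpLP0 at 0.85 and 0.49.

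The offset between the antibodies had the same sign in every member. FLAG minus Caper was negative in 44 of 44, from -0.94 in RpL22 to -0.36 in RpL23A and RpLP0, with a median of -0.57, or 1.48-fold, against -0.04 over all 11012 genes tested. The spread of the offset over members was 0.17 (SD), against 0.40 and 0.51 for the Caper and FLAG changes themselves. Without the replicate block, 0 members passed edgeR's test of the difference, where 0.145% of genes were called lower and 0.817% higher. DESeq2 called 6 members lower, where it called 184 of 6141 genes lower and 442 higher. At an unadjusted p of 0.05, 24 members were lower by edgeR, and the share of all genes at that cut is not given here. With the block 35 of 44, or 79.5%, were called lower and 0 higher, where 5.44% of genes were called lower and 6.62% higher. The members with the most negative values were RpL22 (-0.94, SE 0.10, adjusted p = 0.0012), RpL30 (-0.91, SE 0.16, adjusted p = 0.0083), RpLP2 (-0.91, SE 0.14, adjusted p = 0.0052), RpL27 (-0.90, SE 0.14, adjusted p = 0.0042) and RpL10Ab (-0.86, SE 0.11, adjusted p = 0.0023), all by edgeR with the block. Among the 9 that were not called were RpL10, RpL13, RpL17, RpL19, RpL21, RpL23A, RpL35 and RpLP0, with edgeR adjusted p from 0.0501 in RpL13 to 0.0970 in RpL19. Without the block, the count of lower members was 11 without Caper IP 1 and 1 without FLAG IP 4. Over all genes, 223 of 10780 and 23 of 10959 were called lower in these fits.

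By pair, the pattern was as uniform. The median log2 ratio of the members was -0.10, 0.30 and 0.26 in Caper pairs 1 to 3 and -0.26, -0.45 and -0.57 in FLAG pairs 4 to 6, where the median of all genes stayed between -0.03 and 0.03. Caper pair 1 stood apart from the other Caper pairs, with 19 members above 0 against 32 and 36. In 42 of 44 members (95.5%) all 3 FLAG ratios lay below all 3 Caper ratios, with RpL19 among the exceptions, where 17.4% of all genes had that order. In 10 members all Caper ratios were above 0 and all FLAG ratios below it (RpL3, RpL4, RpL7, RpL7A, RpL18, RpL22, RpL23, RpL23A, RpL34b and RpL35A), where 2.22% of all genes did so. With the block, RpL3, RpL22 and RpL34b were called higher with Caper and lower with FLAG. All 6 ratios were above 0 in 6 members (RpL13, RpL19, RpL21, RpL24, RpL26 and RpLP0) and below 0 in 7 (RpL27, RpL27A, RpL29, RpL36A, RpL37A, RpL40 and RpLP1), where 22.4% and 22.3% of all genes were.

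Short members tended to the lower end. Spearman's correlation of the log2 fold change with exon bases was 0.40 for Caper and 0.41 for FLAG over the 44 genes, and 0.08 and 0.25 over all genes tested. Of 25 members under 1000 exon bases, 13 were above 0 with Caper and 1 with FLAG, against 18 and 6 of 19 longer members. With per-gene offsets that take out the trend with exon length within each library, the correlation fell to 0.01 and -0.06. The FLAG counts then changed to 8 higher and 11 lower, with a median of -0.17 and 16 of 44 above 0, against a background of 19.6% higher and 21.5% lower. Adding the replicate block gave 12 higher and 23 lower, or 27.3% and 52.3% of members where 29.3% and 29.6% of all genes were called. With the length offsets and no block, the FLAG lower calls that stayed were RpL5, RpL7A, RpL10Ab, RpL27, RpL28, RpL29, RpL30, RpL34a, RpL37A and RpLP1. The higher ones in that fit included RpL13, RpL19, RpL21, RpL23, RpL26, RpL35A and RpLP0. The Caper counts changed to 12 higher and 1 lower (27.3% and 2.27% of members, background 5.89% and 7.78%), or 22 and 3 with the block (50.0% and 6.82%, background 15.1% and 15.7%). The offset between antibodies stayed negative in 44 of 44, at a median of -0.37, with 20 called lower and 0 higher with the block (45.5% lower, background 4.0% lower and 4.02% higher). Without the block 0 were called by edgeR, where 0.227% of genes were called lower and 0.581% higher. At an unadjusted p of 0.05, 17 members were lower by edgeR, and the share of all genes at that cut is not given here. RpL29 had -0.50 and -1.26 without the offsets and 0.06 and -0.41 with them. RpLP1 stayed at -1.11 and -1.63.

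**Figure D5:**
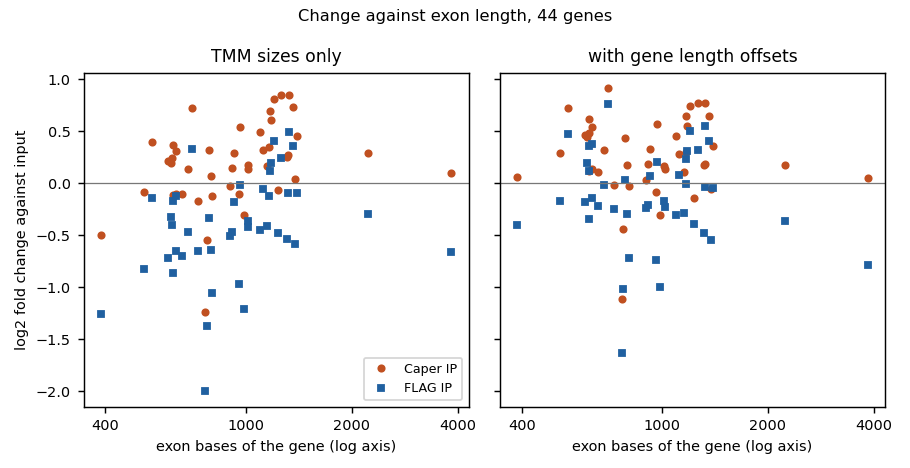
The plot of change against length has exon bases on a log x axis and the log2 fold change against input on the y axis for the 44 genes, with circles for Caper and squares for FLAG, before (left) and after (right) offsets for gene length. The squares of the short genes sit lower on the left than on the right, and RpLP1 remains the lowest point with both antibodies in both panels.

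Members with more counts in the inputs tended to the higher end. Spearman's correlation of the log2 fold change with the per-length level in the inputs was 0.04 for Caper and 0.08 for FLAG, and with the CPM in the inputs, which is not set per length, 0.45 and 0.46. With the length offsets the values were 0.33 and 0.41 for the per-length level and 0.40 and 0.36 for the CPM. The 16 members that hold snoRNA genes had medians of 0.16 and -0.48, and the 28 others 0.25 and -0.33. None of the 16 was above 0 with FLAG, where 7 of the 28 were. Of the 33 nested snoRNA genes, 16 passed the filter in the Caper comparison, with 10 lower and 0 higher, and 14 in the FLAG comparison, with 11 lower and 0 higher. Of all genes tested, 7.53% were lower and 6.33% higher with Caper, and 20.8% and 19.5% with FLAG. The medians of the nested snoRNA genes were -1.17 and -1.32. In 14 of 16 and in 11 of 14 the snoRNA had a lower value than its host. The snoRNA in RpL3, snoRNA:Psi28S-291, had 413 CPM in the inputs and log2 fold changes of -5.30 and -4.26, where RpL3 had 0.30 and -0.29. Other snoRNA genes had medians of -1.78 (99 tested) and -1.55 (87 tested).

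The other genes of the translation machinery are given for scale, as counts and medians. For all genes tested, 6.33% were called higher and 7.53% lower with Caper, and 19.5% and 20.8% with FLAG. With the block these shares were 15.8% and 14.8%, and 29.6% and 29.5%. Of 36 small subunit genes tested with Caper, 2 were higher and 1 lower (14 and 6 with the block, median 0.31), and of 35 with FLAG 0 were higher and 14 lower (2 and 20 with the block, median -0.40). Their FLAG minus Caper value was below 0 in all 36, at a median of -0.67. The ratio of large subunit to small subunit counts was 1.39 to 1.43 in the inputs, 1.42 to 1.51 in the Caper IPs and 1.43 to 1.52 in the FLAG IPs. It was higher in the IP than in its input in all 6 pairs, by 1.02 to 1.06 times. The 46 mitochondrial large subunit genes, encoded in the nucleus, had medians of -0.28 (0 higher, 6 lower) and -0.55 (0 higher, 23 lower), and their FLAG minus Caper median was -0.33, with 3 above 0. The 13 translation factors had 5 higher and 1 lower with Caper (median 0.39) and 1 higher and 5 lower with FLAG (-0.17). The 18 assembly and nucleolar genes had 3 higher and 0 lower with Caper (0.20) and 8 higher and 4 lower with FLAG (0.29), and their FLAG minus Caper median was -0.08. The nuclear genes of the respiratory chain had medians of -0.38 (74 tested, 0 higher, 16 lower) and -0.89 (72 tested, 2 higher, 64 lower). Translation factors and respiratory chain genes thus also had a lower median with FLAG than with Caper. Their FLAG minus Caper medians are not given here.

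Large subunit genes and paralogs outside the 44 were few. Of 10 in the table, 6 passed the filter on low counts. RpL38, RpL39 and RpL41, named after their values were seen, were lower with both antibodies, at log2 fold changes of -2.06, -1.59 and -2.02 with Caper and -3.23, -2.23 and -2.75 with FLAG. They have 1013, 288 and 320 exon bases. All 3 lay below every one of the 44 in both comparisons. The other 3 moved differently. RpL24-like had 0.72 with Caper (edgeR adjusted p = 0.126, or 0.0054 with the block) and was higher with FLAG (0.54, SE 0.14, adjusted p = 0.022). RpLP0-like had -0.01 and -0.00, with neither called. RpL37-1 had -0.01 with Caper and was lower with FLAG (-0.68, SE 0.21, adjusted p = 0.038).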

How the data were processed

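The authors deposited raw counts of read pairs per gene, with no normalization. Per the labels and the file headers they had trimmed reads with fastp (0.20.1), checked them with FastQC (0.11.8), mapped them with STAR (2.7.6a) to dmel_r6.36 and counted exons by strand with featureCounts of Subread (2.0.1) at a mapping quality of at least 20, which left out read pairs that mapped to several places or to overlapping genes. Symbols come from RefSeq genes (Release 6 plus ISO1 MT) at the same position, for 17182 of 17612 genes, 11 of them by an 80% overlap.

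Counts were tested with edgeR 4.0.16 (R 4.3.3), as TMM-scaled counts with filterByExpr (minimum count 10, minimum total count 15), glmQLFit, glmQLFTest and Benjamini-Hochberg adjustment over all genes tested. Every adjusted p of a gene in the text comes from edgeR unless DESeq2 is named. Each antibody's 3 IPs were fitted against its 3 inputs, the difference between antibodies on all 12 libraries as 4 groups, and the inputs on 6 libraries. The SE is the log2 fold change divided by the square root of F. Log2 ratios of a pair used a prior count of 2. Levels per gene are CPM on TMM library sizes, or TPM from exon bases. The ratio tests used scipy 1.17.1 (Python 3.11.15). The scripts were checked on simulated data.

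The main fit has no replicate block, because the methods name none. The numbers in the titles join an IP to its input. After the group means were taken off, the 6 same-numbered IPs and inputs correlated at 0.152 to 0.770 over genes. Other pairings within an antibody had a median of -0.281. Taking off group means by itself pushes these down when same-numbered values are positive. Caper IP 2 went against its number, with 0.565 for input 3 and 0.152 for input 2. The pairing thus rests on the titles, and a fit with the block is given beside calls it changes. The labels do not say that the numbers are separate lysates of separate flies, and p-values measure the spread between these libraries. At these depths the lowest count of a member in any library was 1032 (RpL34a), so counting error is small beside that spread.

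The alternatives were DESeq2 1.42.0, RLE or library-size scaling, TMM factors without ribosomal protein genes, no filter, 10 counts in every library, genes of at least 300 exon bases outside mitochondria and rDNA, offsets for gene length (a lowess trend with a span of 0.3), and leaving out each library. The versions of these with the block, the ratio tests and the pair patterns were added after the data were seen. The members and gene lists were chosen with earlier results of these data known. Named with full values were the 5 highest and 5 lowest members by mean log2 fold change among those called with either antibody, the highest and lowest per-length levels, the P stalk genes, RpL34a and RpL34b, RpL22 and RpL23A, and RpL32. The values of 1 member are not reported here by name, and it stays in all counts.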

Additional observations from a re-analysis of the deposited data

Results flagged for a closer look

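Effects that differ between the antibodies were looked for with the test of the difference and the replicate block. It called 35 members (79.5%), every one of them with the lower value under the FLAG antibody, where 5.44% of all genes were called lower and 6.62% higher. Without the block edgeR called 0 members. With the block and gene length offsets it called 20 (45.5%), where 4.0% of all genes were called lower. The 5 with the largest size were RpL22 (-0.94), RpL30 (-0.91), RpLP2 (-0.91), RpL27 (-0.90) and RpL10Ab (-0.86), as FLAG minus Caper log2 fold changes. The antibodies differed also in host species, in the shares of assigned alignments and in their input lysates, which cannot be told apart here.

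In 10 members (22.7%) all 3 Caper pairs were above 0 and all 3 FLAG pairs below it, where 2.22% of all genes did so. That opposite pattern of signs was not itself tested. With 3 libraries a group, no search for a single deviating library was made.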

How the results depend on the processing

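The FLAG minus Caper value stayed negative for all 44 members under every alternative fitted, and 0 members were called between the input sets under any. Counts of calls moved more. With the replicate block, Caper gave 15 members higher and 4 lower, FLAG 5 and 29, and the difference 0 and 35. The shares of all genes in these fits were 15.8% and 14.8%, 29.6% and 29.5%, and 6.62% and 5.44%. With the replicate block and gene length offsets together, Caper gave 22 and 3, FLAG 12 and 23, and the difference 0 and 20. All-gene shares were then 15.1% and 15.7%, 29.3% and 29.6%, and 4.02% and 4.0%. The 23 lower with FLAG are 52.3% of members. With length offsets alone FLAG gave 8 higher and 11 lower, shares of 18.2% and 25.0% beside 19.6% and 21.5% of all genes in that fit. DESeq2 and library size only each gave 3 higher for FLAG, where 2072 of 10733 and 2522 of 10476 genes were called higher. DESeq2 gave 6 lower for the difference, where 184 of 6141 genes were called lower. Library size only with the block gave 1 lower for Caper, where 1008 of 10778 genes were. Library size alone moved the median of all genes in the Caper comparison from 0.03 to 0.18, and 39 members were then above 0.

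Leaving out 1 library gave 0 to 16 higher and 0 to 1 lower for Caper. It gave 0 to 1 higher and 10 to 27 lower for FLAG, and 0 to 11 lower for the difference. Over all genes, Caper higher calls then ran from 5 of 11553 to 1159 of 10391, and lower calls from 107 of 11553 to 1153 of 10391. For FLAG they ran from 1371 of 10941 to 1878 of 10401 and from 1543 of 10941 to 1980 of 10401. Lower calls for the difference ran from 0 of 11698 to 223 of 10780. Leaving out 1 pair under the block gave 5 to 23 higher and 1 to 3 lower for Caper, and 3 to 4 higher and 26 to 32 lower for FLAG. Over all genes, Caper then gave 487 of 10965 to 1494 of 10579 higher and 693 of 10965 to 1636 of 10579 lower. FLAG gave 2588 of 10566 to 2766 of 10544 higher and 2637 of 10566 to 2948 of 10544 lower. Members whose sign turned in a called value did so only with length offsets, among them in FLAG RpL23 (0.48, block 0.48) and RpL35A (0.36, block 0.35), and only with the block RpL6 (0.20) and RpL31 (0.19), and in Caper RpL36A (0.29, with the block). The cause was not tested. The lowest count of a member in any library was 1032.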
